A study of Mus musculus with 6 samples.

Results

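Homeobox genes encode transcription factors that bind DNA through a homeodomain and set the identity of body regions, limbs, organs and cell types in the embryo. The genes described here are the 92 of the 17912 genes in the deposited table whose symbols belong to the Hox clusters or to the Meis, Pbx, Tgif, Irx, Nkx, Msx, Dlx, Barx, Emx, Hhex, Gbx, Pax, Pitx, Alx, Prrx, Lhx, Isl or SINE (Six4 and its relatives) families, in the mouse. The mouse annotation holds 118 genes whose symbols fit that pattern. The rule uses the symbols alone. Bulk RNA of cells labelled as mouse embryonic stem cells was sequenced in 2 groups. The first group holds 3 clones, numbered 5, 6 and 7, of the genotype EXOSC2_KD, made with a short hairpin RNA (shEXOSC2) against Exosc2, which encodes a subunit of the RNA exosome, a complex that trims and degrades RNA. The second holds 3 control libraries, numbered 1, 2 and 3, of the genotype WT. The labels give no control hairpin, no parental line, and nothing on whether clones and controls were grown side by side or came from separate cultures, so the p-values measure the spread between these libraries, which may be technical.

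Hox genes lie in 4 clusters, HoxA to HoxD, and in the embryo are switched on in the order in which they lie, the low-numbered genes earlier and nearer the head than the high-numbered ones. In pluripotent cells the clusters are mostly silent and carry the marks of Polycomb repression, and retinoic acid switches on their low-numbered genes. HOX proteins bind DNA together with the TALE homeodomain proteins of the PBX and MEIS families. TGIF proteins are TALE repressors of TGF-beta and retinoic acid responses, and IRX proteins pattern the nervous system, heart and limb. The NK-like, paired-type, LIM and SINE families act in the formation of skin appendages, branchial arches, muscle, sense organs, brain and endodermal organs. PAX9 carries a paired domain without a homeodomain and PAX5 and PAX8 a partial one, so not every protein counted here has a whole homeodomain.

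The libraries held 24533508, 24268430 and 26494985 reads on genes in clones 5, 6 and 7, and 24633836, 21107761 and 22201525 in controls 1, 2 and 3. All levels below are scaled counts, which are read counts per gene divided by a factor for each library. The targeted gene, Exosc2, had 1138, 997 and 981 scaled counts in the clones, against 2457, 2473 and 1954 in the controls. No clone reached the lowest control. Its clone mean was 45.3% of the control mean, and limma gave a log2 fold change of -1.14 ± 0.13 (SE; adjusted p = 5.1e-05). By exact permutation of the 6 libraries the two-sided p was 0.1, and a design of this size cannot give a smaller one. Most markers of the labelled cell type were low or absent in the clones. Of 20 embryonic stem cell markers, 18 were lower and 2 higher in the clones, with a median log2 fold change of -6.90. Zfp42, Utf1 and Dppa3 had no read in any clone, and the homeobox gene Nanog had 2 reads in the 3 clones together, against 28918 in the 3 controls. The other way, the stem cell factor Pou5f1, another homeobox gene, averaged 91114 ± 2227 scaled counts in the clones and 21045 ± 4721 in the controls (SD, n = 3 each), and Klf4 averaged 14169 ± 2032 in the clones and 2415 ± 82.0 in the controls. Of 19 fibroblast and feeder cell markers that were tested, 18 were higher and 1 lower in the clones. Their levels summed to 94406, 92395 and 114099 scaled counts in the clones and 20212, 17369 and 18617 in the controls. In bulk RNA, fewer cells of a kind and less RNA per cell cannot be told apart.

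Homeobox genes moved in both directions and by large amounts. Of the 92 members, 68 reached a mean of 10 scaled counts over the 6 libraries and were tested, and 24 did not. In limma with Benjamini-Hochberg adjustment over all 15179 genes tested, at a threshold of 0.05, 31 members were higher in the knockdown clones, 23 were lower and 14 did not pass. The called share was 79.4%, beside 73.5% of all genes tested, of which 35.2% were higher and 38.3% lower, so most genes of the table were called and the share of members is near that of the rest. At 4-fold or more, 39 of the 68 members (57.4%) were called, 22 higher and 17 lower, beside 25.6% of all genes tested, 10.2% higher and 15.4% lower. The median log2 fold change was 0.54 over the tested members and -0.07 over all tested genes. The member median depends on which genes were tested: it was 0.28 with no filter, beside -0.14 over all genes, and 1.91 among genes with a mean of at least 50, beside 0.02. With quantile normalization it was 1.68, beside -0.04. In 68 of the 92 members the clones and the controls did not overlap, with 32 higher and 36 lower in every clone, beside 74.1% of the whole table. Among genes with a mean of at least 50, 20 members were higher and 13 lower, beside 38.4% and 36.0% of the genes at that level, of which 74.4% were called in all.

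Many of these genes were barely read in one of the groups. In 26 of the 68 tested members a group mean was under 10 scaled counts, so such a gene passed the filter through the group where it was high. Of the 42 members with at least 10 in both groups, 21 were higher, 9 lower and 12 not called, beside 69.8% of all such genes called. At 4-fold or more these counts were 13 higher and 3 lower, 38.1% of the 42, beside 15.4% of all such genes. In all, 10 members had no read in any clone, and 1, Hoxa6, had no read in any control. A mean of at least 100 scaled counts was reached by 27 members in the clones and 18 in the controls, and a mean of at least 1000 by 6 in the clones and 4 in the controls.

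**Figure D1:**
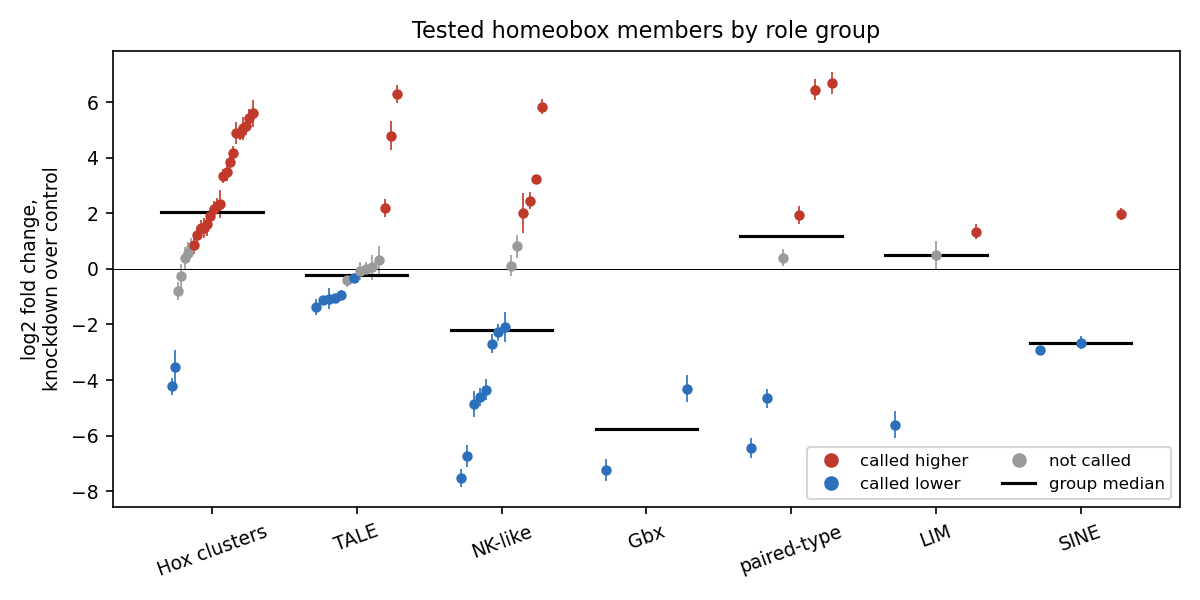
Log2 fold change, knockdown clones over controls, of the 68 tested members by family group (points, with the standard error of the fit as bars) and the median of each group (black lines). The 26 tested Hox genes have a median of 2.04, while the 14 NK-like genes have a median of -2.19 and hold both large rises and large falls.

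The clearest block was HoxA, on chromosome 6 from 52155590 to 52260880 in GRCm38. All 11 of its genes in the table were tested, and all 11 were higher in the clones, with no overlap between the groups and a median log2 fold change of 3.47. Summed over the cluster, the clones had 1873, 1845 and 1906 scaled counts, against 152, 145 and 331 in the controls. Toward the low-numbered end, Hoxa2, the selector of the second branchial arch, had 33.8, 32.9 and 41.5 in the clones and 1.89, 2.16 and 3.01 in the controls. Hoxa3, which acts in the thymus and parathyroid, had 207, 236 and 251 in the clones and 4.74, 3.24 and 13.1 in the controls. Both genes were near silent in the controls.

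Large changes also stood in the middle of HoxA, beside the log2 fold change of 5.05 ± 0.42 of Hoxa3. Hoxa4, a neck and trunk patterning gene, had 212, 183 and 231 scaled counts in the clones and 4.74, 6.48 and 7.03 in the controls, a log2 fold change of 4.89 ± 0.26 (adjusted p = 5e-07, limma). Hoxa5, which acts in the lung and the neck vertebrae, had 353, 351 and 304 in the clones and 6.63, 4.32 and 11.05 in the controls, a log2 fold change of 5.42 ± 0.32 (adjusted p = 9.9e-07). Each clone was more than 20 times above each control for both genes. Hoxa6 had 36.8, 28.8 and 36.9 in the clones and no read in any control, which makes it at least 11.3-fold higher in the clones against a floor of 3 reads per library. Hoxa7 had 419, 459 and 471 in the clones and 17.99, 23.8 and 33.1 in the controls, a log2 fold change of 4.16 ± 0.25. Hoxa9, best known from blood progenitors, had 161, 142 and 141 in the clones and 26.5, 27.001 and 46.2 in the controls.

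Toward the high-numbered end, where the genes pattern the limb and the urogenital tract, the differences were smaller. Hoxa10 had 55.7, 35.96 and 50.7 scaled counts in the clones and 14.2, 20.5 and 26.1 in the controls. Hoxa11 had 45.8, 28.8 and 44.3 in the clones and 16.1, 10.8 and 14.1 in the controls. Hoxa13 had 27.9, 27.7 and 34.1 in the clones and 18.9, 9.72 and 21.1 in the controls. The log2 fold changes of these 3 genes were 1.20 ± 0.32, 1.46 ± 0.30 and 0.88 ± 0.34 in that order. Hoxa13 lost its call in 5 of the 6 fits that left out 1 library, in edgeR and DESeq2, and when the median of its chromosome was taken off. The median log2 fold change of the genes tested on chromosome 6 was 0.41. The sources used here do not say whether reads were counted by strand. Without strand, Hoxa11, which shares 34.98% of its exon bases with the antisense gene Hoxa11os, Hoxa3 (27.1% shared) and Hoxa7 (20.4% shared with Hoxaas3) cannot be told apart from their partners there.

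HoxD, on chromosome 2 from 74668310 to 74765142, followed the same pattern with an exception at its low-numbered end. Of its 8 genes present, 7 were tested: 6 were higher and Hoxd11 did not pass. Their median log2 fold change was 2.27, and the sums were 1432, 1382 and 1115 scaled counts in the clones and 172, 136 and 227 in the controls. Hoxd4 had 92.5, 105 and 87.6 in the clones and 0.947, 0 and 3.01 in the controls, though 52.3% of its exon bases are shared with Hoxd3, Gm28230 or Hoxd3os1. Hoxd8 had 468, 515 and 387 in the clones and 11.4, 8.64 and 29.1 in the controls, a log2 fold change of 4.89 ± 0.40. Hoxd9 had 224, 256 and 194 in the clones and 14.2, 11.9 and 19.1 in the controls, a log2 fold change of 3.83 ± 0.26. Each of these genes was higher in every clone than in any control.

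Hoxd10 had 75.6, 87.3 and 78.4 scaled counts in the clones and 17.05, 20.5 and 25.1 in the controls, and Hoxd12 had 35.8, 23.6 and 47.97 in the clones and 15.2, 5.40 and 14.1 in the controls. Hoxd13, the digit and urogenital gene at the high-numbered end, had 511, 377 and 297 in the clones and 89.02, 55.1 and 100.4 in the controls, a log2 fold change of 2.27 ± 0.29 (adjusted p = 9.6e-05). Per kilobase of transcript, its clone level of 159 scaled counts was second in the cluster to the 173 of Hoxd8. Hoxd11 overlapped, with 24.9, 17.5 and 23.1 in the clones and 8.52, 21.6 and 22.1 in the controls. Hoxd1 went the other way: it had 1 read in the 3 clones together, against 43 reads in the controls (0, 1.03 and 0 scaled counts in the clones against 16.1, 12.96 and 14.1), a ratio of 42.0 with an exact 95% Poisson interval of 7.53 to 1658 for counting error only. It lay under the filter, and the fit without the filter called it lower.

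HoxB and HoxC differed from that picture gene by gene. In HoxB, on chromosome 11 from 96194316 to 96354012, 4 of 9 genes were tested. Hoxb4, a regulator of blood stem cells, had 116, 119 and 137 scaled counts in the clones and 8.52, 12.96 and 13.1 in the controls, a log2 fold change of 3.34 ± 0.26 (adjusted p = 5.2e-06). Hoxb3 had 16.9, 25.7 and 37.8 in the clones and 6.63, 8.64 and 11.05 in the controls and was called higher, with 52.9% of its exon bases shared with the antisense Hoxb3os. Hoxb9 overlapped, with 37.8, 17.5 and 40.6 in the clones and 23.7, 34.6 and 57.3 in the controls. Hoxb13, a gene of the tail and prostate, fell: it had 0, 1.03 and 2.77 in the clones and 9.47, 36.7 and 28.1 in the controls, a log2 fold change of -3.52 ± 0.62.

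The other 5 HoxB genes were under the filter and overlapped between the groups. Hoxb2 had 6.96, 9.25 and 17.5 scaled counts in the clones and 9.47, 5.40 and 9.04 in the controls. Hoxb5 had 6.96, 2.05 and 8.30 in the clones and 4.74, 0 and 2.01 in the controls, and Hoxb6 had 12.9, 2.05 and 13.8 in the clones and 2.84, 1.08 and 11.05 in the controls. Hoxb7 had 13.9, 5.14 and 5.54 in the clones and 9.47, 9.72 and 6.03 in the controls, and Hoxb8 had 11.9, 6.16 and 13.8 in the clones and 8.52, 3.24 and 11.05 in the controls. HoxB was thus raised at Hoxb3 and Hoxb4 without a detectable difference, at this depth, in their low-read neighbours.

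In HoxC, on chromosome 15 from 102921103 to 103036852, none of the 4 tested genes was called higher and 1 was called lower. The 7 genes in the table summed to 89.5, 60.6 and 104 scaled counts in the clones and 108, 94.0 and 113 in the controls, which overlap. Hoxc13, a gene of hair and nail, had 3 reads in the clones together (0.995, 1.03 and 0.923 scaled counts), against 108 reads in the controls (35.04, 42.1 and 32.1), a ratio of 37.1 with an interval of 12.7 to 180 for counting error only. Hoxc4 had 15.9, 9.25 and 9.23 in the clones and 19.9, 16.2 and 25.1 in the controls, and Hoxc8 had 21.9, 17.5 and 30.4 in the clones and 17.05, 11.9 and 10.04 in the controls. Neither pair of groups overlapped and neither passed the test, with adjusted p of 0.055 and 0.057 in limma.

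Hoxc6 had 23.9, 20.5 and 34.1 scaled counts in the clones and 22.7, 9.72 and 21.1 in the controls. The remaining HoxC genes were under the filter. Hoxc5 had 6.96, 4.11 and 11.99 in the clones and 2.84, 4.32 and 9.04 in the controls, Hoxc9 had 8.95, 0 and 4.61 in the clones and 2.84, 2.16 and 6.03 in the controls, and Hoxc10 had 10.9, 8.22 and 12.9 in the clones and 7.58, 7.56 and 10.04 in the controls. All of these overlapped. Over the 4 clusters, 19 of 26 tested Hox genes were higher, 2 were lower (Hoxb13 and Hoxc13) and 5 did not pass. The called share was 80.8%, beside 73.5% of all genes tested, 35.2% higher and 38.3% lower.

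**Figure D2:**
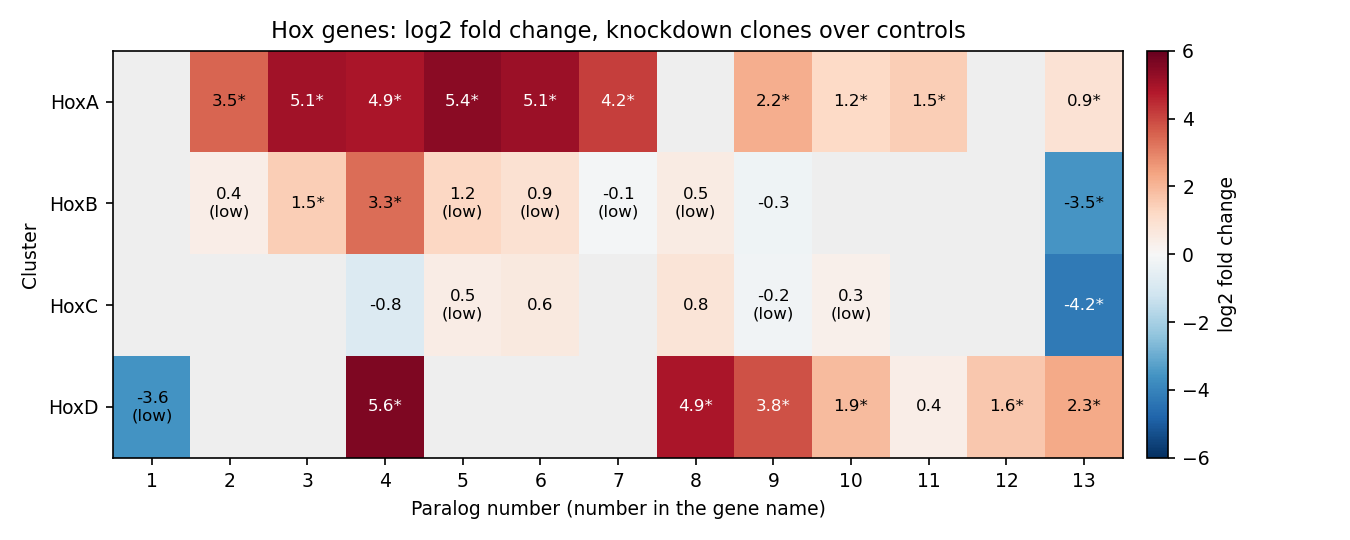
Log2 fold change, knockdown clones over controls, of Hox genes in the table, by cluster (vertical) and paralog number (horizontal). An asterisk marks a call at an adjusted p under 0.05, "(low)" a gene under the filter, whose value comes from the fit without it, and grey a place with no value shown. The HoxA genes shown are all raised, most strongly Hoxa3 to Hoxa7, and the HoxC row holds no called rise.

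The raised clusters were set against the nearest tested genes on each side, leaving out those with names in Hox, Hotair, Hottip or Gm. On either side of HoxA, Skap2, which lies 143 kb away, was higher in the clones with a log2 fold change of 1.74, as was Tax1bp1 (0.70). Jazf1 (-2.01) and Hibadh (-0.25) were lower, while Snx10 (0.29) and the nearest of these genes, Halr1 at 41.9 kb (-0.21), did not pass. Beside HoxD, Lnp (0.08, 88.9 kb away) and Mtx2 (0.01, 60.7 kb away) were the nearest of these genes on each side that are not pseudogenes. Neither passed, nor did the pseudogene Rps6-ps4 (-0.36). Atp5g3 (-0.61, 757 kb away), Hnrnpa3 (-1.03, 894 kb away) and the pseudogene Mrpl23-ps1 (-0.77) were lower. Beside HoxB, Ttll6 (-3.02), Calcoco2 (-5.00) and Cbx1 (-1.94) were lower, Nfe2l1 (0.60) was higher, and Atp5g1 (-0.38) and Snx11 (0.33) did not pass. The named neighbours of HoxA and HoxB thus moved in both directions or did not pass, and those of HoxD were lower or did not pass. The summed fibroblast markers, as given above, were higher in every clone than in any control, as were the HoxA and HoxD sums. Higher sums were not particular to fibroblast markers. The neural markers summed to 10906, 11039 and 10836 in the clones and 6430, 6780 and 7056 in the controls. The endoderm markers summed to 2321, 2347 and 1876 in the clones and 569, 443 and 694 in the controls. Gene by gene these lists differed from the fibroblast list. Of 11 neural markers tested, 4 were higher, 6 lower and 1 not called, and their median was -0.51 on the log2 scale. Of 5 endoderm markers tested, 2 were higher, 2 lower and 1 not called, and their median was -0.79. Of the 19 fibroblast markers tested, 18 were higher, and their median was 2.21. The trophoblast and stem cell sums were lower in every clone, and the surface epithelium sums overlapped. The stem cell sum averaged 111258 in the clones and 159927 in the controls, while the median log2 fold change of that list was -6.90. That sum includes Pou5f1 and Klf4, which were higher in the clones, as given above. Among the fibroblast markers, Twist1 averaged 1029 ± 201 scaled counts in the clones and 68.2 ± 5.55 in the controls (SD, n = 3 each). The part of these cell types in the Hox values was not tested.

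**Figure D3:**
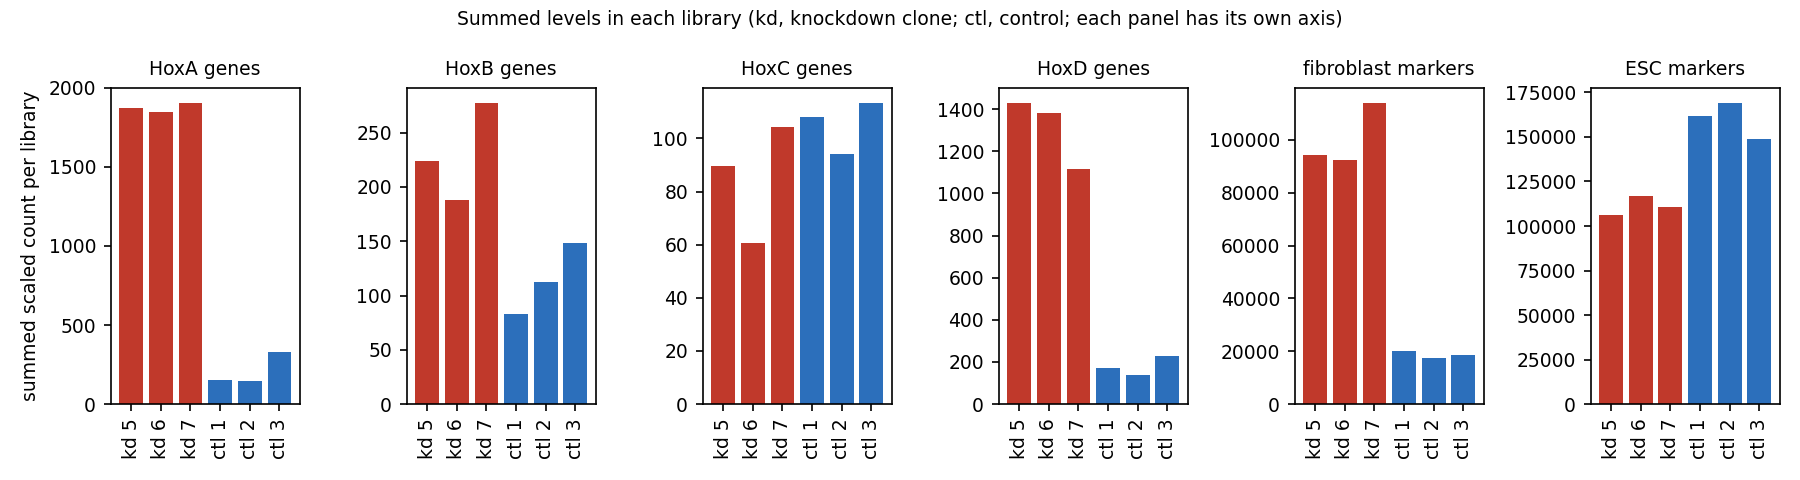
Summed scaled counts in each library of the Hox genes of each cluster and of the fibroblast and embryonic stem cell marker lists, knockdown clones (kd) left and controls (ctl) right, each panel with its own axis from 0. HoxA and HoxD are far higher in all 3 clones than in any control, as are the fibroblast markers, while HoxC overlaps. The stem cell markers sum to less in the clones, although that sum holds Pou5f1 and Klf4, which were higher.

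Of the TALE genes, which include the PBX and MEIS partners of HOX proteins, 14 of 15 were tested. Of these 3 were higher, 6 lower and 5 did not pass, with 64.3% called beside 73.5% of all genes tested. Meis1, which encodes a DNA-binding partner of HOX and PBX proteins, had the largest change of the group. It lies on chromosome 11 from 18879817 to 19018985. It had 2220.4, 2451 and 2126 scaled counts in the clones, against 21.8, 19.4 and 50.2 in the controls. The clones all stood over 40 times above the highest control, and the log2 fold change was 6.30 ± 0.32 (adjusted p = 4.4e-07, limma). Its paralogs did not share this. Meis2 had 42.8, 19.5 and 49.8 in the clones and 22.7, 28.1 and 58.3 in the controls, and Meis3 had 108, 104 and 138 in the clones and 90.9, 133 and 126 in the controls, both overlapping.

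The products of PBX genes bind DNA jointly with HOX and MEIS proteins. Pbx3 had 285, 279 and 234 scaled counts in the clones and 557, 463 and 502 in the controls, a log2 fold change of -0.93 ± 0.15. Pbx2 had 1311, 1379.8 and 1291 in the clones and 1485, 1632 and 1904 in the controls, a log2 fold change of -0.33 ± 0.12 whose call was lost when clone 5, 6 or 7 or control 3 was left out and with eBayes without trend. Pbx4, with 111, 129 and 99.6 in the clones and 115, 159 and 184 in the controls, overlapped. Pbx2 and Pbx3 were thus called lower and Meis1 higher.

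Both TGIF repressors fell. Tgif1 had 1957, 1937 and 2029.6 scaled counts in the clones and 4472, 3978 and 3787 in the controls, a log2 fold change of -1.04 ± 0.10 (adjusted p = 1.8e-05, limma). Tgif2 had 706, 822 and 711 in the clones and 1572, 1758 and 1563 in the controls, a log2 fold change of -1.13 ± 0.12 (adjusted p = 2.7e-05), with 61.6% of its exon bases shared with genes on the other strand. The spread within each group was small beside the difference in both.

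The Iroquois genes, which lie in 2 clusters, split within each. On chromosome 8, Irx5 had 61.7, 82.2 and 47.05 scaled counts in the clones and 12.3, 17.3 and 10.04 in the controls, and Irx6 had 30.8, 64.7 and 31.4 in the clones and 0, 2.16 and 0 in the controls. Irx6 thus had 128 reads in the clones and 2 in the controls, a ratio of 58.8 with an interval of 16.3 to 485 for counting error only. Irx3, the third gene of that cluster, overlapped, with 47.8, 60.6 and 66.4 in the clones and 42.6, 59.4 and 89.4 in the controls. On chromosome 13 Irx2 had 21.9, 11.3 and 30.4 in the clones and 34.1, 48.6 and 47.2 in the controls and was called lower, a log2 fold change of -1.08 whose call was lost without clone 6, control 2 or control 3 and when the median of its chromosome was taken off. With quantile normalization the call was lost as well, at -0.079. Irx1 overlapped. Irx4 had no read in the clones and 51 in the controls, with 6, 8 and 37 in controls 1, 2 and 3.

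**Figure D4:**
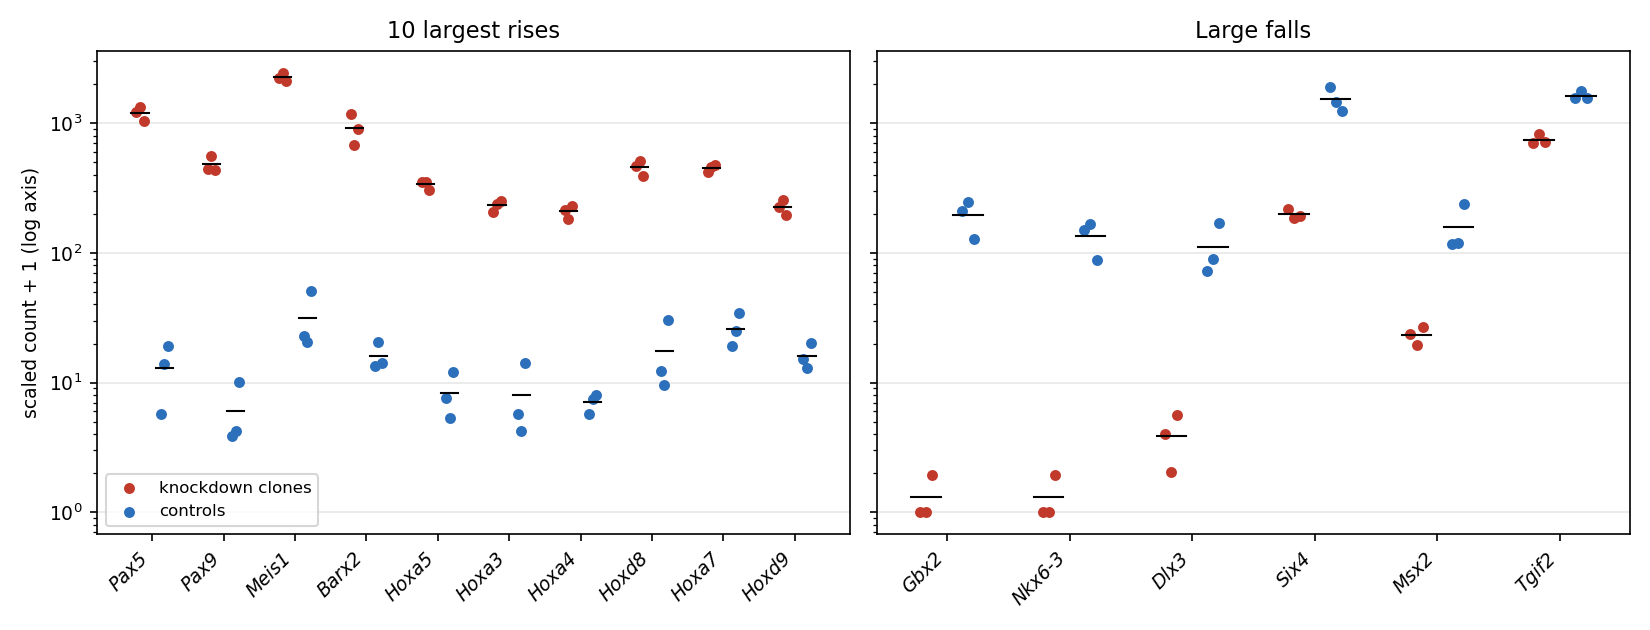
Scaled count + 1 in each library (log axis) of the members with the 10 largest rises (left) and of 6 with large falls (right) among called members that average 50 or more and whose groups are apart. Dots are libraries, knockdown clones left of controls for each gene, and black lines are group means. Meis1 and Pax5 stand above 1000 in every clone and at or under 50.2 in every control, and Gbx2 and Nkx6-3 have 1 read each in the 3 clones together.

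The NK-like genes held 14 tested members, of which 4 were higher, 8 lower and 2 did not pass. The called share was 85.7%, beside 73.5% of all genes tested. Barx2, a gene of muscle and skin appendages on chromosome 9 from 31846044 to 31913462, had 1168, 674 and 896 scaled counts in the clones and 12.3, 19.4 and 13.1 in the controls, a log2 fold change of 5.83 ± 0.27 (adjusted p = 2.6e-07, limma). Hhex, which acts in anterior endoderm, liver, thyroid and blood vessel precursors, had 1262, 1282 and 1115 in the clones and 138, 121 and 124 in the controls, a log2 fold change of 3.25 ± 0.14 (adjusted p = 1.9e-07). Dlx1, a forebrain gene, had 13.9, 22.6 and 18.5 in the clones and 1.89, 1.08 and 16.1 in the controls. It was called higher although the groups overlapped, and it lost the call without clone 6 or 7 or control 1 or 2, in edgeR, in DESeq2 and with eBayes without trend. Its log2 fold change of 2.02 ± 0.72 was 1.43 without control 2 and 2.95 without control 3.

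The NK-like falls reached the floor of detection. Nkx6-3, a gene of the stomach on chromosome 8 from 23153269 to 23158948, had 1 read in the clones (0, 0 and 0.923 scaled counts) and 400 in the controls (149.6, 167 and 87.4), a ratio of 438 with an interval of 78.7 to 17315 for counting error only. Nkx1-2 and Nkx2-4 had no clone read and, set against 3 reads per library, were at least 8.00-fold and 6.92-fold lower in the clones. Nkx2-4 lay just above the filter, with 27.5, 21.6 and 12.1 in the controls and a mean of 10.2 over all libraries.

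The Dlx genes, which pattern the branchial arches, limbs and forebrain, also held falls. Dlx3, a gene of epidermis, hair and placenta, had 2.98, 1.03 and 4.61 scaled counts in the clones and 71.97, 88.6 and 169 in the controls, a log2 fold change of -4.86 ± 0.46. Its neighbour Dlx4, 15.2 kb away on chromosome 11, had 8.95, 8.22 and 5.54 in the clones and 31.3, 46.4 and 44.2 in the controls and was lower too. Dlx2 overlapped, with 20.9, 17.5 and 38.7 in the clones and 9.47, 11.9 and 21.1 in the controls.

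The Msx genes, repressors that act downstream of BMP signalling in limb, tooth and skull, moved in opposite directions. Msx1 had 182, 242 and 166 scaled counts in the clones and 27.5, 28.1 and 54.2 in the controls, a log2 fold change of 2.45 ± 0.31 (adjusted p = 0.0001, limma). Msx2 had 22.9, 18.5 and 25.8 in the clones and 116, 118 and 239 in the controls, a log2 fold change of -2.68 ± 0.33 (adjusted p = 8e-05). In both genes the groups were apart. The 2 genes together summed to 205, 261 and 192 in the clones and 143, 146 and 293 in the controls, which overlap.

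**Figure D5:**
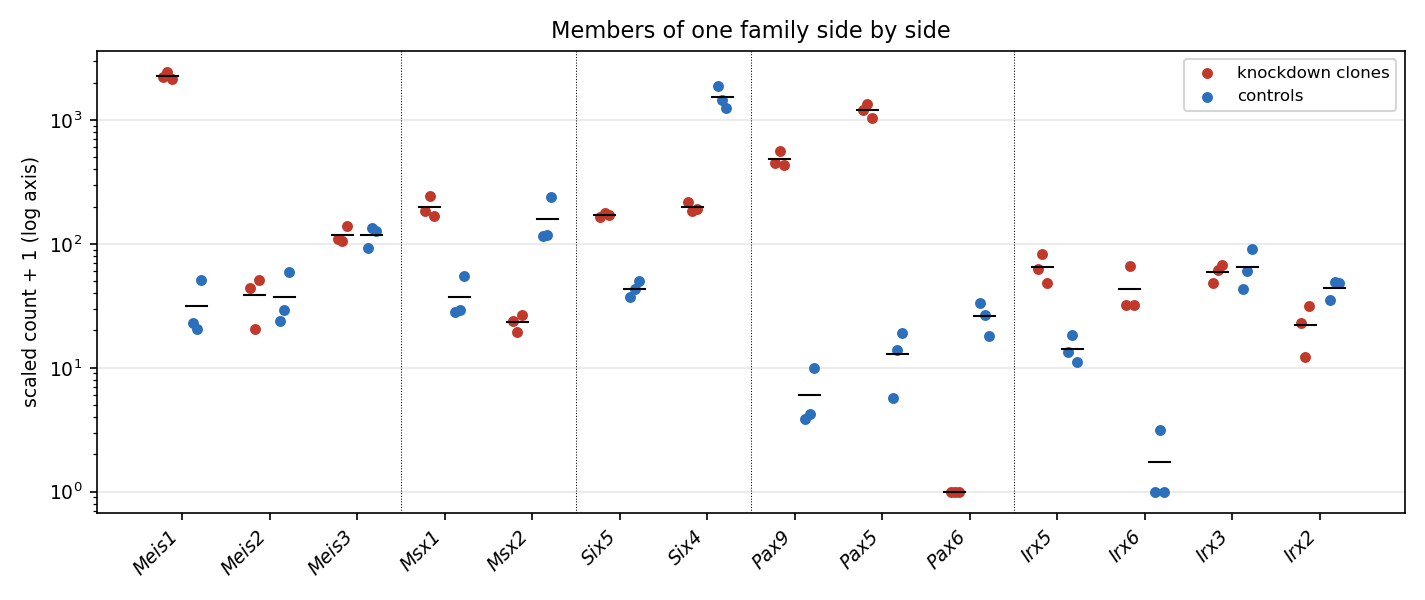
Scaled count + 1 in each library (log axis) of members of the Meis, Msx, SINE, Pax and Irx families side by side, knockdown clones left of controls for each gene, with group means as black lines. In the Msx, SINE, Pax and Irx families some genes are higher and others lower in the clones. In the Meis family Meis1 alone is apart between the groups.

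Both Gbx genes, which act at the boundary of midbrain and hindbrain and in the forebrain, had next to no reads in the clones. Gbx2 had 0, 0 and 0.923 scaled counts in the clones, a single read, and 208, 247 and 128 in the controls, from 576 reads. The ratio was 632 with an interval of 113 to 24971 for counting error only, and 43.5% of its exon bases are shared with D130058E05Rik on the other strand. Gbx1 had no read in the clones and 8.52, 25.9 and 29.1 in the controls, at least 7.20-fold lower in the clones, and lay just above the filter with a mean of 10.6.

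Of 12 paired-type genes, 6 were tested, with 3 higher, 2 lower and 1 not called. The called share was 83.3%, beside 73.5% of all genes tested. Pax5, the B cell commitment factor that also acts in the midbrain, lies on chromosome 4 from 44524757 to 44710487. It had 1211, 1345 and 1042 scaled counts in the clones and 4.74, 12.96 and 18.1 in the controls, a log2 fold change of 6.70 ± 0.40 (adjusted p = 1.1e-06, limma). Pax9, a gene of pharyngeal pouch, tooth and sclerotome on chromosome 12 from 56691767 to 56712822, had 445, 561 and 434 in the clones and 2.84, 3.24 and 9.04 in the controls, a log2 fold change of 6.45 ± 0.38 (adjusted p = 9.5e-07). These were the 2 largest rises among the members with a mean of at least 50. Nkx2-9, which lies 78.5 kb from Pax9, overlapped between the groups, with 3.98, 11.3 and 13.8 in the clones and 3.79, 7.56 and 14.1 in the controls.

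Pax6, the eye and forebrain gene, was at the other extreme, with no read in the clones and 32.2, 25.9 and 17.1 scaled counts in the controls, at least 8.51-fold lower in the clones. Prrx1, a gene of limb and craniofacial mesenchyme that fibroblasts also express, had 1655, 1274 and 1792 in the clones and 539, 228 and 549 in the controls, a log2 fold change of 1.93 ± 0.32. Its paralog Prrx2 overlapped, with 118, 106 and 211 in the clones and 79.5, 138 and 103 in the controls.

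The LIM homeodomain genes, which specify neurons and other cell types, had few reads. Lhx6, a gene of forebrain interneurons, had 2 reads in the clones (1.99, 0 and 0 scaled counts) and 212 in the controls (89.02, 70.2 and 53.2), a ratio of 107 with an interval of 29.6 to 882 for counting error only. Lhx9, a gene of gonad and limb, had 94.5, 65.8 and 116 in the clones and 36.9, 33.5 and 34.1 in the controls, a log2 fold change of 1.34 ± 0.27. Isl2 overlapped, with 20.9, 11.3 and 7.38 in the clones and 12.3, 10.8 and 4.02 in the controls. Lhx2 lay just below the filter with a mean of 9.80, with 2.98, 2.05 and 2.77 in the clones and 13.3, 22.7 and 15.1 in the controls.

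The SINE genes, relatives of fly sine oculis whose products act with EYA proteins in muscle, ear and kidney, split by gene. Six4, on chromosome 12 from 73099609 to 73113456, had 218, 185 and 190.0 scaled counts in the clones and 1886, 1454 and 1251 in the controls, a log2 fold change of -2.93 ± 0.17 (adjusted p = 9.8e-07, limma). Six5, a gene on chromosome 7 from 19094594 to 19098549, had 163, 176 and 169.7 in the clones and 35.99, 42.1 and 49.2 in the controls, a log2 fold change of 1.98 ± 0.21 (adjusted p = 3.4e-05). In both genes every clone lay on the same side of every control.

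Among the 24 members under the filter, the fit without the filter called 1 higher, Pax3, 12 lower and 11 in neither direction. That fit called 70.1% of the table, 31.9% higher and 38.2% lower. The lower ones included the LIM genes Isl1, Lhx1, Lhx2 and Lhx5, together with Alx1, Barx1, Emx1, Hoxd1, Irx4, Pax8 and Six2. Lhx1, a head organizer gene, had no read in the clones and 20.8, 18.4 and 4.02 scaled counts in the controls, at least 4.89-fold lower in the clones. Pax8, a thyroid and kidney gene, had 0.995, 1.03 and 0 in the clones and 12.3, 15.1 and 13.1 in the controls. Pax3, a gene of neural crest and muscle precursors, had 5.97, 5.14 and 3.69 in the clones and 0, 1.08 and 1.004 in the controls. Each of these rests on few reads.

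Levels of different genes were set side by side per kilobase of the longest annotated transcript. In the clones Tgif1 was highest, at 628 scaled counts per kilobase, followed by Barx2 at 464, Pbx2 at 433, Hhex at 312 and Meis1 at 300.02. In the controls Tgif1 was highest as well, at 1297, followed by Tgif2 at 562 and Pbx2 at 546, while Barx2 was at 7.59 and Meis1 at 4.04. The longest annotated transcript of Tgif1 and of Hhex has a single exon and may not be the one that is expressed. The 3 leading members were thus TALE genes in the controls, while Barx2, Hhex and Meis1 stood among the leading 5 in the clones.

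The spread between libraries was set beside that of all genes with a mean of at least 100, which were not matched to the members by level. Over the 27 members with such a mean in the clones, the median coefficient of variation was 10.4% in the clones, beside 6.74% over all such genes. Over the 18 in the controls it was 24.4%, beside 14.9%. Counting noise is larger at lower levels, and its part in this difference was not tested. Control 3 was the highest of the 3 controls in 48 of 91 members (52.7%), beside 40.7% of the table, and clone 7 was the highest of the clones in 39 of 82 (47.6%), beside 30.5%. None of the 54 calls changed direction when any 1 library was left out.

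The table of RefSeq promoters on GRCm38.p6, which spans 250 bases before to 50 after each start, held 69 windows for 58 of the members. Of these windows 66.7% were CpG-dense, with an observed over expected CpG ratio above 0.6 and a GC content above 50%, beside 33.3% of all 32851 windows. Of the windows of members higher in the clones 12 of 26 (46.2%) were CpG-dense, and of those lower 16 of 20 (80.0%). The share was 9 of 11 (81.8%) for members not called and 9 of 12 (75.0%) for those under the filter. Some genes have several windows, so the 20 windows of lower members come from 12 genes and the 26 of higher members from 25. Of the Hox windows 10 of 22 (45.5%) were CpG-dense. The letters CCAAT, a common promoter element, stood on either strand in 50.7% of member windows and 37.4% of all. TAATTA, a core homeodomain site, stood in 7.25% and 5.29%, the HOX and PBX core TGATNNAT in 7.25% and 8.85%, and TGACAG, the core bound by MEIS proteins, in 15.9% and 19.2%. A match is a description of letters only. The following 6 windows belong to a leading rise in each of 3 families (Hoxa5, Meis1 and Pax5), to the Msx pair that moved apart, and to Gbx2, which had 1 read in the clones. All lie on the minus strand and are written 5′ to 3′ in that direction, with CG dinucleotides in capitals, and in order they span chr6:52204538-52204837, chr11:19018920-19019219, chr4:44710645-44710944, chr5:37824536-37824835, chr13:53472731-53473030 and chr1:89931127-89931426.
Hoxa5: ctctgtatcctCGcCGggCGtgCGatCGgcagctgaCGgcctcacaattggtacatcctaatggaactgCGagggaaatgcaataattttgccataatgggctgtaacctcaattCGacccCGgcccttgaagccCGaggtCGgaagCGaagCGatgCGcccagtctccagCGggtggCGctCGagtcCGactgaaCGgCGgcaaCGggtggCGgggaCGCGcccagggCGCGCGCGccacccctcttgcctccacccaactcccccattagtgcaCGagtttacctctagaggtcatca
Meis1: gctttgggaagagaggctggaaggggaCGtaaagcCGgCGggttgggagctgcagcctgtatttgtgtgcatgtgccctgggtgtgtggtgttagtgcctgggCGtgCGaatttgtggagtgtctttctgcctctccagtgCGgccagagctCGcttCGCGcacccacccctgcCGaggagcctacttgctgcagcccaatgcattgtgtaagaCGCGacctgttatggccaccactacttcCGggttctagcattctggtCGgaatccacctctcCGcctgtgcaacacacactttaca
Pax5: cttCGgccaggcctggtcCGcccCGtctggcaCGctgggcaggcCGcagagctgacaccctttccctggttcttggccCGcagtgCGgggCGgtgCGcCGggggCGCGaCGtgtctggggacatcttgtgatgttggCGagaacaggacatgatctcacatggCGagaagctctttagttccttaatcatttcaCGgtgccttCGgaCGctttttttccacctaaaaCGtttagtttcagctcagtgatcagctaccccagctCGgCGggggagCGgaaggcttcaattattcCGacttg
Msx1: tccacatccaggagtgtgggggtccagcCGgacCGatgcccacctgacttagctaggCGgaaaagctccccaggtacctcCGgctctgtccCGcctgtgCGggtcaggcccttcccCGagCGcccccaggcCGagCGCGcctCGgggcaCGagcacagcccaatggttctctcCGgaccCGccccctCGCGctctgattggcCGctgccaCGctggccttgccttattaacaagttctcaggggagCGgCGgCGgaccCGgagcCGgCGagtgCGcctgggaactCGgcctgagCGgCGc
Msx2: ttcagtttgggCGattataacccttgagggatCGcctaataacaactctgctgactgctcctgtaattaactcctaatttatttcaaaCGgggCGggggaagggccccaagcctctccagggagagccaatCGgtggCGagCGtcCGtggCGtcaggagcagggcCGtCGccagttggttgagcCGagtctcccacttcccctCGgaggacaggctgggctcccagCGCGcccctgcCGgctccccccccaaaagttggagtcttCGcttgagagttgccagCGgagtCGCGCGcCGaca
Gbx2: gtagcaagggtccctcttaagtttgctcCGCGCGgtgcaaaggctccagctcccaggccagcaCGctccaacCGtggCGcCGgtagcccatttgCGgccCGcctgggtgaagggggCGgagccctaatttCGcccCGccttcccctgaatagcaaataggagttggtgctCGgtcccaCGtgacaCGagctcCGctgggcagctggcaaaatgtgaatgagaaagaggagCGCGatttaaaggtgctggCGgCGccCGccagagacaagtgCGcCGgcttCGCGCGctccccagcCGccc
The Msx1 window holds 29 CpG dinucleotides and that of Msx2 22, and TAATTA stands in the Msx2 window and not in the Msx1 window. The Hoxa5, Pax5 and Gbx2 windows hold 29, 23 and 27 CpG, and the Meis1 window 15, so Hoxa5, Pax5 and Msx1, which were higher, and Gbx2 and Msx2, which were lower, all have CpG-dense windows, while the Meis1 window falls just under the ratio at 0.589.

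Genes that act with the homeobox members were listed by role. The counts below stand beside 73.5% of all genes tested called, 35.2% higher and 38.3% lower. Of the 3 other TALE genes, Pknox1, a MEIS-related partner of PBX, was higher with a log2 fold change of 0.46, Pknox2 was lower (-3.94) and Mkx, a tendon gene, did not pass. Of 47 other homeobox genes tested, 23 were higher, 21 lower and 3 not called, with a median of 0.59. Tlx2, a neural crest gene, had no control read and was at least 221-fold higher in the clones, and Otx2, a gene of forebrain and epiblast, had no clone read and was at least 273-fold lower. Nanog, given above, was lower in the clones by a ratio of 14387 with an interval of 3983 to 118801 for counting error only.

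Of 14 tested cofactors of SINE and LIM proteins, 4 were higher, 3 lower and 7 not called. Ssbp2, which stabilizes LIM cofactor complexes, averaged 3138 ± 124 scaled counts in the clones and 130.4 ± 22.4 in the controls, a log2 fold change of 4.59, while its paralog Ssbp3 was lower (-1.21) and Dach2 higher (1.72). Of 6 Groucho corepressors, 3 were higher, 2 lower and 1 not called. Tle3 averaged 410.2 ± 21.9 in the clones and 4435 ± 475 in the controls, a log2 fold change of -3.43, while Aes (1.53) and Tle2 (1.12) were higher. Paralogs moved apart in both lists.

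In the retinoic acid pathway, 10 of 20 tested genes were higher, 8 lower and 2 not called, with a median log2 fold change of 0.23. Aldh1a3, which makes retinoic acid, averaged 5833 ± 1460.2 scaled counts in the clones and 26.1 ± 2.32 in the controls, a log2 fold change of 7.73. Rdh10, which makes its precursor retinal, was higher as well (2.89), and Stra8, a retinoic acid-induced germ cell gene, had no clone read and was at least 68.9-fold lower. Of 26 Polycomb and trithorax regulators of Hox clusters, 8 were higher, 13 lower and 5 not called, with a median of -0.56. Of all genes tested 73.5% were called, with a median of -0.07. The 3 regulators with the smallest p, Phc1 (-2.33), Mtf2 (-2.44) and Ezh2 (-1.86), all Polycomb proteins, were lower. Ezh2, the methyltransferase, averaged 1994 ± 117 in the clones and 7252 ± 607 in the controls. The part of these regulators in the Hox values was not tested.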

How the data were processed

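RNA of 6 libraries was measured by poly(A) RNA sequencing with the TruSeq Stranded mRNA kit, per the labels' protocols. Per the submitters' processing notes, the tools were DESeq 1.22.1, HTSeq 0.5.3, STAR 2.5.0a and cutadapt 1.6, and the genome build was mm10; their settings are not given there. What the authors deposited is a signal, the read count of each gene scaled by DESeq, per the file headers. Divided by the smallest step of its library, 100% of the values came out whole to within 0.001 read, which gave back the reads, and the table holds no gene with under 15 reads in all. Of its genes 17860 (99.7%) matched GENCODE M21 (GRCm38, the assembly of mm10), which gave positions, exon overlaps and transcript lengths. Genes whose mean over the libraries was at least 10 were tested on log2(value + 1), a scale that understates changes of low genes, with limma 3.58.1 (trended eBayes). Groups came from the sample titles. The labels list each library as a separate sample, and no pair within a group was one library deposited again: pairs differed by more than counting noise (chi-square over its degrees of freedom, 11.4 to 14.5 for clones and 33.6 to 57.5 for controls). Each library was counted as a replicate on the labels' word, which does not show that they are independent cultures. The limma step was tested on simulated data.

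The members and lists were chosen with earlier results of these data known, so no count over them is independent support, and no test of a list was made. Named with values in every library were Exosc2, every Hox gene, the 10 largest rises and falls among called members averaging at least 50 whose groups did not overlap, the 3 members of each family group with the smallest p, and the members nearest the filter. Of each cofactor list the 3 genes with the smallest p were named, and other members were named freely; some members that these rules name are not reported here. A gene without reads in a group was compared with 3 reads in each library, and ratios on 1 to 3 reads were given with an exact 95% Poisson interval. The alternatives tried were a pseudocount of 0.5 or 5, testing the whole table or only genes averaging 50 or more, TMM factors, quantile normalization, eBayes without trend or robust, edgeR 4.0.16 (quasi-likelihood) and DESeq2 1.42.0 on the recovered reads, centring on the median of each chromosome, and leaving out each library. In all 33 of the 92 members share exon bases with another annotated gene. The CpG counts and motif shares came from the RefSeq promoter windows.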

Additional observations from a re-analysis of the deposited data

How the results depend on the processing

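Of the 54 members called, 49 kept their call and direction in every alternative run, 5 (Dlx1, Hoxa13, Irx2, Nkx6-2 and Pbx2) lost the call in some, and none reversed; of 1125 comparisons of a tested member with an alternative, 1059 kept direction and side of the threshold. The filter moved the counts: with a mean of at least 50 there were 20 members called higher, 13 lower and 11 Hox genes higher, fewer because fewer genes were tested, and with no filter 35 members were lower. Over the whole table, edgeR on the recovered reads called 5190 genes higher and 5960 lower, beside 5347 and 5811 in limma. Quantile normalization called 39 members higher and 21 lower, and raised the median of the members to 1.68. Of the 14 members not called, 9 changed sign in some alternative. These were, on the log2 scale, Hoxb9 at 0.71, Hoxc4 at 0.32 and Irx3 at 0.66 with quantile normalization; Emx2 at -0.27, Irx3 at 0.40 and Pbx4 at 0.076 with chromosome centring; and Meis3 at -0.018 in edgeR and -0.0051 in DESeq2. The cause was not tested. Leaving out 1 library at a time gave -0.21 to 0.43 for Emx2, -0.55 to 0.11 for Hoxb9, -0.018 to 0.62 for Hoxd11, -0.17 to 0.76 for Irx1 and -0.33 to 0.19 for Irx3. It gave -0.22 to 0.45 for Meis2, -0.15 to 0.12 for Meis3 and -0.12 to 0.34 for Mkx, which is no member. Depth limits the 24 members under the filter and any gene with few reads in a group. No paired analysis was possible because the controls are numbered 1 to 3 and the clones 5 to 7, so the groups share no number.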

Other observations

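Non-coding genes inside the Hox clusters were looked at after the values of the Hox genes were known. Hotairm1, a long non-coding RNA gene of the HoxA cluster, had 71.6, 85.3 and 83.95 scaled counts in the clones, against 5.68, 5.40 and 6.03 in the controls. The groups were far apart, with a log2 fold change of 3.597 ± 0.25. Hoxaas3, antisense to Hoxa7, had 27.9, 29.8 and 26.8 in the clones and 0, 4.32 and 7.03 in the controls, a log2 fold change of 3.06 ± 0.69. Hoxa11os had 28.8, 20.5 and 35.06 in the clones and 8.52, 10.8 and 16.1 in the controls, a log2 fold change of 1.20 ± 0.34. All 3 were called higher in the clones, as were Hoxa7 and Hoxa11. Hoxa7 shares 20.4% of its exon bases with Hoxaas3, and Hoxa11 34.98% with Hoxa11os. Hoxaas3 shares exon bases with Hoxa3 as well. Whether reads were counted by strand is not known, so these antisense rises may not be separate from those of Hoxa3, Hoxa7 and Hoxa11. Hoxaas2, in HoxA and under the filter, overlapped, with 1.99, 4.11 and 5.54 in the clones and 0, 1.08 and 6.03 in the controls. Gm15050 and Gm27861, under the filter too, were higher in every clone than in any control. In HoxD, Hoxd3os1 lay under the filter with 15.9, 27.7 and 11.99 in the clones and 0.947, 0 and 0 in the controls. It shares exon bases with Hoxd4. In HoxB, Gm53 had 24.9, 5.14 and 28.6 in the clones and 51.1, 57.2 and 129 in the controls and was called lower, while Gm11539 did not pass.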
